A study of Zea mays with 18 samples.

Results

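The response of *zmccd8* roots to water stress (WS) was described from 6 of the 18 root libraries of the study, chosen by their labels. They were 3 of *zmccd8* plants under WS and 3 of *zmccd8* plants under control conditions (CT). In *zmccd8* the third exon of the gene *ZmCCD8* is interrupted by a Ds element. The mutant has the background of the maize inbred B73 and stands for 1 allele. The gene encodes carotenoid cleavage dioxygenase 8, an enzyme of strigolactone synthesis. Plants of both groups stood singly in pots of vermiculite for 4 weeks. WS plants were given complete Hoagland solution at transplanting and nothing afterwards, whereas CT plants were given it 3 times a week. WS therefore withheld water and nutrients at once, and their parts in any difference cannot be told apart. For comparison, wild-type B73 (WT) roots under WS and CT (3 libraries each) and *zmccd8* roots without nitrogen (0N, KNO3 replaced by KCl, 3 libraries) were used. The study's methods describe RNA replicates pooled from 4 plants for its qRT-PCR, and where libraries were not separate cultures the p-values below measure only the spread between samples.

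Polyadenylated RNA was sequenced in strand-specific libraries, and expression was deposited as FPKM, fragments on a gene scaled by its length and by the size of the library. Of 55661 features in the table, 27530 reached 1 FPKM in at least 3 of the 18 libraries and were tested: 23874 annotated genes, 3118 transcripts assembled by the authors and 538 single transcripts of a gene. The fragment counts rebuilt from FPKM ranged between 33055504 and 40417525 in the 6 libraries, and the 10 most abundant genes took 2.46% to 3.63% of them. Genes are named by the Swiss-Prot entry or Pfam domain given in the table (19265 and 17136 of the tested features, 6480 with neither), so a name marks similarity, often to a gene of another species. The table's transcription factor family label was not used, since it was given to 1108 tested features for NAC of which 8.66% carried the NAC domain, and to 1372 for bHLH of which 4.3% carried that domain. Factors were defined by domain instead. The roots' label was checked with markers of green tissue, of which 12 chlorophyll a-b binding genes summed to 6.99, 8.15 and 9.19 FPKM in the WS libraries and 20.1, 16.1 and 23.8 FPKM in the CT libraries. The other leaf list, 6 tested genes of C4 enzymes, was higher in both groups. It summed to 60.21, 66.85 and 74.97 FPKM in the WS libraries and 67.78, 57.54 and 87.52 FPKM in the CT libraries. The source of these reads was not tested. Genes with the root cap domain were detected in all 6 libraries.

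Plant roots that dry out make abscisic acid (ABA), a hormone formed by cleavage of a carotenoid in the reaction of 9-cis-epoxycarotenoid dioxygenase (NCED). ABA binds PYR/PYL receptors, which then inhibit protein phosphatases 2C and so release SnRK2 kinases. Downstream, dry tissues are known for late embryogenesis abundant (LEA) proteins, compatible sugars and chaperones, and for lower water transport and wall extension.

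Genes of LEA proteins, known from drying seeds, were among the largest rises of annotated genes with a name in *zmccd8* roots under WS. The most strongly expressed was Dehydrin DHN1 (Zm00001eb285360, chr6:148134643-148135795 of Zm-B73-REFERENCE-NAM-5.0), a LEA protein of drying tissue, at 4548, 7707 and 6244 FPKM in the WS libraries, against 2.02, 2.06 and 3.3 FPKM in the CT libraries. Most of the tested expansins, class III peroxidases and plasma membrane aquaporins (proteins of wall loosening, wall cross-linking and water passage) fell. A gene was called when limma's test on log2(FPKM + 1) gave a Benjamini-Hochberg adjusted p no higher than 0.05 and the log2 difference was at least 1 in either direction. In total 4565 genes were called (16.6% of those tested), 1717 higher under WS (6.24%) and 2848 lower (10.3%), while the median log2 difference of all tested genes was −0.00149. That median is held near 0 by the scaling of the deposited values. The 3 WS libraries lay wholly outside the 3 CT libraries for 4542 of the called genes, and for 14147 of the 27530 tested. Calls from 3 against 3 libraries favour such genes. The log2 difference was 3 or more for 205 genes that rose and −3 or less for 235 that fell. Since 1 FPKM was added before the logarithm, differences of genes near 0 are understated. As a second tool, limma-voom was run on the read counts rebuilt from FPKM and called 6145 genes by the same limits. In bulk roots, fewer cells of a type and less RNA per cell cannot be told apart.

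**Figure D1:**
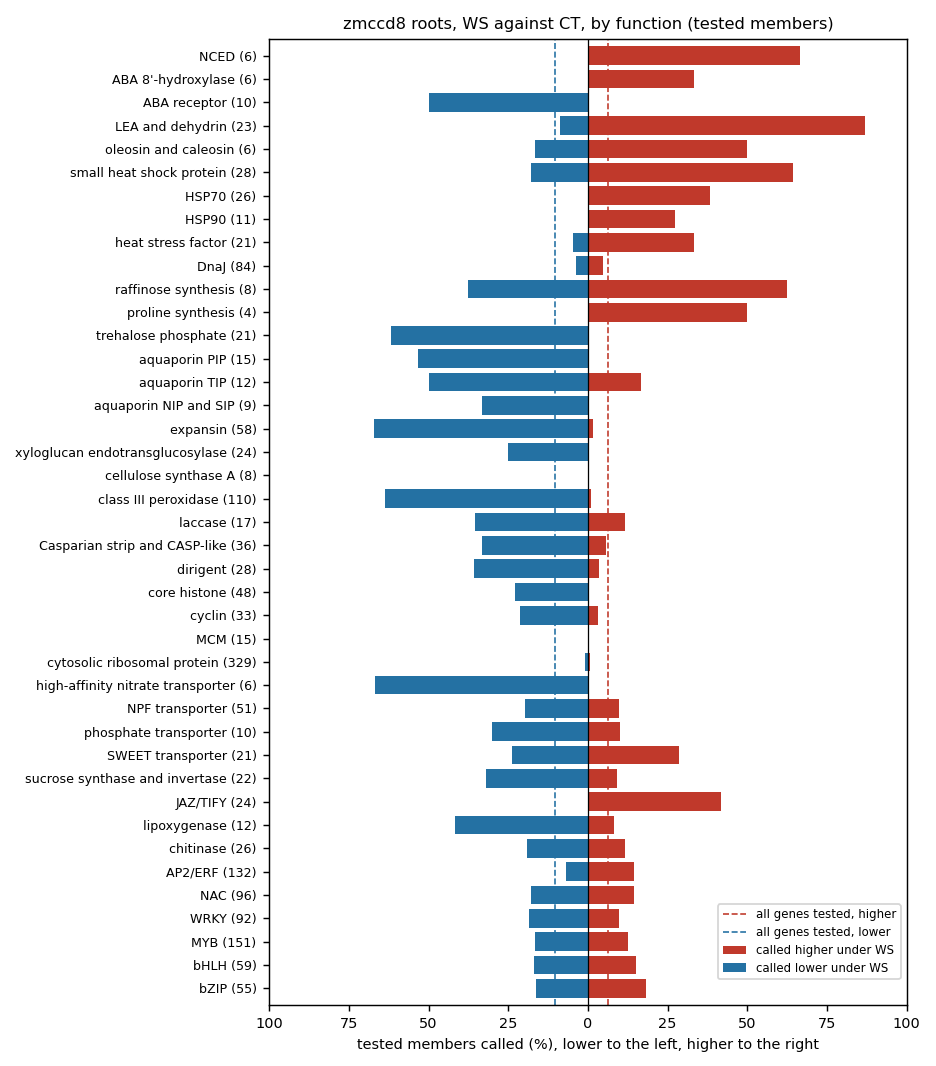
Share of the tested members of 41 function lists that were called in *zmccd8* roots under WS against CT (%), higher to the right in red and lower to the left in blue, with the number of tested members in brackets and the shares over all tested genes (6.24% higher, 10.3% lower) as dashed lines. LEA proteins and NCED genes reach farthest to the right, and class III peroxidases, expansins, high-affinity nitrate transporters and trehalose phosphate genes reach over 60% on the left.

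The differences were sorted into 84 lists by gene description, holding 3104 distinct tested genes, of which 880 were called (342 higher, 538 lower). More than 50% of the tested members were called higher in 5 lists and lower in 6 lists, as the bar chart of calls by function shows for 41 of the 84. The shares in a list are read below against 6.24% and 10.3%.

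Among the 10 annotated genes with a name and the largest rises, 5 were LEA genes, DHN1 included. LEA protein group 3 (Zm00001eb294480) reached 1387, 2444 and 1970 FPKM under WS, against 3.47, 2.9 and 2.17 FPKM under CT, a log2 difference of 8.95 ± 0.23 (SE; limma, adjusted p = 2.97e-06). Em protein H5 (Zm00001eb286150), named after a seed protein of wheat, had 245, 245 and 172 FPKM under WS and 0.336, 0.0687 and 0.319 FPKM under CT. LEA protein D-34 (Zm00001eb004470) was at 124, 277 and 224 FPKM against 0.0639, 0 and 0.0808 FPKM, and a gene with the LEA group 1 domain (Zm00001eb414650) at 195, 365 and 284 FPKM against 0.068, 0 and 0 FPKM. In these 4 genes no CT library was above 3.47 FPKM and no WS library below 124 FPKM. The plasma membrane protein PM19L (Zm00001eb306010, 493, 718 and 494 FPKM under WS against 0.051, 0.156 and 0 under CT), an aldose reductase (Zm00001eb290330, 417, 763 and 441 against 0.122, 0 and 0; it overlaps another feature on its strand) and a gene with the LTI65/LTI78 domain (Zm00001eb044080, 176, 332 and 249 against 0, 0 and 0.267), known in *Arabidopsis* from desiccation and cold responses, rose as well. UDP-glucosyltransferase 29 (Zm00001eb330430), which by its name adds glucose to small molecules, was at 320, 436 and 334 FPKM in WS libraries and at 0.0921, 0.0942 and 0 FPKM in CT libraries. The remaining gene of the 10 was Heat shock cognate 70 kDa protein (Zm00001eb397600, 223, 315 and 244 against 0.663, 0.0485 and 0.112 FPKM). In all, 143 genes were at 1 FPKM or more on average under WS and under 0.1 FPKM under CT.

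At the other end, the deepest fall of an annotated gene with a name was that of Inorganic phosphate transporter 1-2 (Zm00001eb004100, chr1:11304260-11306250), a phosphate uptake carrier, with 0.966, 0.354 and 1.23 FPKM under WS against 275, 221 and 188 FPKM under CT (log2 difference −6.97 ± 0.22, adjusted p = 6.69e-06). Fe(2+) transport protein 1 (Zm00001eb052440), an iron uptake carrier that overlaps another feature on its strand, was at 0.0289, 0.0169 and 0.316 FPKM under WS and 38.9, 37 and 39.2 FPKM under CT. The 10 deepest falls also held 3 genes named Nicotianamine synthase 2, whose enzyme makes a chelator of iron and other metals. In these 3 genes the CT libraries differed widely among themselves (117, 32.1 and 232 FPKM for Zm00001eb396110, 81.5, 18.7 and 161 for Zm00001eb396120 and 70.5, 18.3 and 123 for Zm00001eb014700), and every WS value was below 0.5 FPKM. Copies of this gene are alike, so their values are uncertain where reads could have been split between them, and Zm00001eb396120 was not called by voom. An aspartic proteinase named nepenthesin-1 (Zm00001eb136650, 0.0918, 0.216 and 0.669 FPKM under WS against 89.9, 88.4 and 91.2 under CT), Lichenase-2 (Zm00001eb286760, a glucanase of cell walls, 5.62, 6.31 and 21.3 against 613, 529 and 549.7) and Cation/H(+) antiporter 19 (Zm00001eb031840, 0.123, 0.176 and 0.107 against 44.5, 49.5 and 64.7) had CT libraries close to each other. The last of the 10 were Cationic peroxidase SPC4, described with the peroxidases below, and a gene with a lipid transfer domain (Zm00001eb305230, 1.32, 1.31 and 0.635 against 28.7, 176 and 93). For 184 genes the mean was at least 1 FPKM under CT and under 0.1 FPKM under WS.

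**Figure D2:**
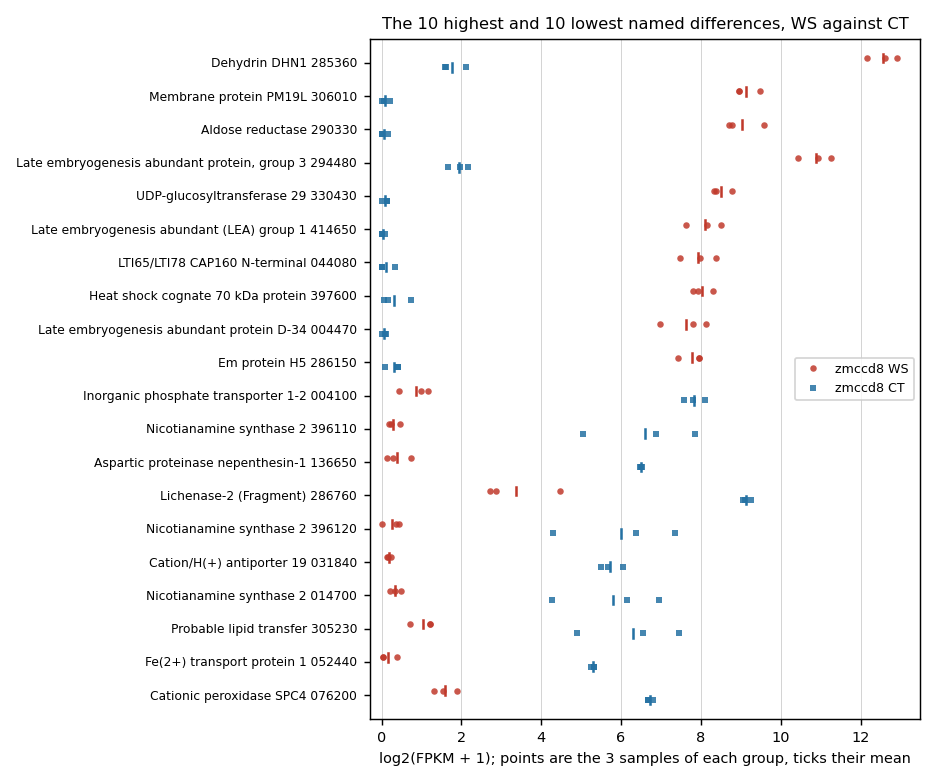
Level of the 10 named genes with the largest rise and the 10 with the deepest fall in *zmccd8* roots, as log2(FPKM + 1) in each of the 3 WS libraries (red circles) and 3 CT libraries (blue squares), with a tick at the mean of each group. WS and CT libraries are apart in all 20 genes, as their choice required. The CT libraries of the 3 Nicotianamine synthase 2 genes and the lipid transfer gene are spread the most.

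Of the called genes, 1132 had neither a Swiss-Prot name nor a Pfam domain (423 higher, 709 lower), and 590 were transcripts assembled by the authors (206 higher). The unnamed assembled transcript with the largest rise lies on the plus strand of chromosome 1 (chr1:206982887-206983784). It was at 1184, 1390 and 1066 FPKM under WS against 0.0644, 0.132 and 0 FPKM under CT, a log2 difference of 10.15 ± 0.12 (adjusted p = 2.88e-07). The study's transcript list gives its first 399 bases, in which the longest frame from a start codon runs for 272 bases without a stop. Bases 128 to 367 of the transcript are shown because no name in the table describes this gene, with the start codon of that frame in capitals.
chr1:206982887-206983784: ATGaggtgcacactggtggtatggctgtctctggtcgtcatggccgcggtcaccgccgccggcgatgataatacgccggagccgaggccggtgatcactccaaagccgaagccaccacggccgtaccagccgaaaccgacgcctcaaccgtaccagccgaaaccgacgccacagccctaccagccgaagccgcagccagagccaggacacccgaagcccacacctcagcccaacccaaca
The frame was read by computer and no protein of it was measured. The unnamed assembled transcript with the deepest fall, on the minus strand of chromosome 1 (chr1:19860076-19869854), was at 0.839, 3.41 and 2.65 FPKM under WS and 77.5, 137 and 133 FPKM under CT.

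Among ABA genes, members of the synthesis and breakdown lists rose and receptors fell, while the signalling lists were closer to the shares over all genes. Of 6 tested NCED genes 4 rose, and the list's median log2 difference was 1.94. NCED4 (Zm00001eb300240) stood at 23.6, 36.6 and 18.6 FPKM under WS and 0.499, 0.107 and 0.224 FPKM under CT, with a log2 difference of 4.37 ± 0.26 (adjusted p = 7.17e-05). The ABA 8'-hydroxylases, which inactivate the hormone, had 2 of 6 called higher. Their largest rise was that of an assembled transcript named ABA 8'-hydroxylase 1 (chr4:164796356-164799193), at 44.9, 58 and 54.6 FPKM under WS against 3.0, 3.09 and 2.63 FPKM under CT. The receptors went the other way, with 5 of 10 called lower and a median of −1.09, and 0 were higher by limma at an unadjusted p under 0.05 or called higher by voom. PYL9 (Zm00001eb239670) was close to undetected, at 0.179, 0.0262 and 0.488 FPKM under WS and 10.5, 17.4 and 8.95 FPKM under CT, whereas the most abundant receptor, PYL5 (Zm00001eb350630), had 65.4, 75.8 and 65.6 FPKM under WS and 58.8, 75.6 and 60 under CT (log2 difference 0.09, adjusted p = 0.61). Protein phosphatases 2C, a list of the whole family and not only of the phosphatases of ABA signalling, rose in 16 of 105 (15.2%) and fell in 9 (8.57%). The largest rise was that of Probable protein phosphatase 2C 37 (Zm00001eb419870, log2 difference 4.10; same-strand overlap), and the deepest fall that of BIPP2C1 (Zm00001eb401240, −2.94), which was also the most abundant. SnRK2 kinases had 2 of 15 called higher, SAPK1 (Zm00001eb392580) among them at 46.8, 53.4 and 45.4 FPKM under WS against 6.36, 9.25 and 9.28 FPKM under CT, and 2 called lower.

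Protective proteins of dry seeds formed the list with the largest share of rises among tested members. Of 31 LEA and dehydrin genes, 23 passed the filter on low values. A gene close to undetected under CT could pass that filter through WS libraries alone, which can raise the share of rises in a list. LEA proteins and dehydrins were called higher in 20 of 23 tested genes and lower in 2 (1 without CT 1, CT 3, WS 1 or WS 2), with a median log2 difference of 4.46 and a summed level of 8876, 14760 and 12260 FPKM in the WS libraries, against 888, 944 and 1169 FPKM in the CT libraries. The member that fell the most was Desiccation-related protein PCC13-62 (Zm00001eb421710), at 3.81, 4.74 and 4.02 FPKM under WS and 42.8, 40.6 and 27.7 FPKM under CT. Oleosins and caleosins, proteins of oil bodies, had 3 of 6 called higher, led by Oleosin L (Zm00001eb000200, 37.5, 86.4 and 57.4 against 5.58, 6.55 and 9.09 FPKM), and 1 lower, a Peroxygenase (Zm00001eb028770; same-strand overlap) with 1.18, 0.735 and 0.761 FPKM under WS and an uneven 16.9, 13.8 and 126 FPKM under CT. Of 47 genes of seed storage, 7 passed the filter on low values, and the 4 of them that rose were 3 oleosins of the preceding list and a globulin.

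Chaperone genes rose more often than they fell, but not in all classes. Small heat shock proteins, which hold unfolding proteins, were called higher in 18 of 28 tested genes and lower in 5, with a median of 1.97. The 16.9 kDa class I heat shock protein 1 (Zm00001eb124960) showed the largest rise, with 36.2, 83.8 and 65.7 FPKM under WS against 0.454, 0.133 and 0.307 FPKM under CT, while the chloroplastic small heat shock protein (Zm00001eb026680) fell, at 7.36, 5.87 and 9.56 FPKM against 40.1, 31 and 36.1 FPKM. The most abundant member, a 17.9 kDa class I protein (Zm00001eb011900), had 67.6, 98.5 and 88.8 FPKM under WS and 72.7, 86.7 and 79 FPKM under CT (log2 difference 0.08, not called). HSP70 genes rose in 10 of 26, HSP90 genes in 3 of 11 and HSP100 genes in 3 of 10 (2 members of these lists were lower by limma at an unadjusted p under 0.05, and 0 were called lower by limma or voom). Heat shock protein 82 (Zm00001eb418610) was at 12.7, 18.4 and 16.5 FPKM under WS against 0.0384, 0 and 0.0364 FPKM under CT. The abundant HSP90 gene Heat shock protein 81-1 (Zm00001eb101750) had 416, 360.2 and 378 FPKM under WS and 246, 224 and 276 FPKM under CT, a log2 difference of 0.63, which is under the limit of 1. DnaJ co-chaperones were called in 4 (higher) and 3 (lower) of 84, below both shares for all genes, and 1 of them, dnaJ 11 (Zm00001eb228100), fell to 0.901, 1.73 and 2.89 FPKM under WS against 63.2, 103 and 98.9 FPKM under CT. Heat stress factors, which switch on chaperone genes, rose in 7 of 21 and fell in 1, with C-2a (Zm00001eb239380) at 91.6, 112 and 89.1 FPKM against 5.31, 4.12 and 5.41 FPKM. Leaving out 1 library took the small heat shock proteins that fell down to 3 (without CT 1 or WS 1) and the HSP100 genes that rose down to 1 (without WS 1).

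Enzymes of compatible solutes changed member by member. In raffinose synthesis 5 of 8 tested genes rose and 3 fell. Galactinol synthase 2 (Zm00001eb395600), which makes the galactosyl donor for raffinose, was at 209, 296 and 224 FPKM under WS against 18.3, 15.2 and 13.7 FPKM under CT, and a galactinol-sucrose galactosyltransferase (Zm00001eb303190; same-strand overlap) at 388, 563 and 550.1 FPKM against 63.2, 84.6 and 116 FPKM. A related gene, galactosyltransferase 1 (Zm00001eb033870), fell to 1.51, 1.25 and 2.6 FPKM under WS against 22.4, 28.8 and 22.6 FPKM under CT, so the list held large differences of both signs. Of 4 proline synthesis genes 2 rose, with the synthase P5CS2 (Zm00001eb367740) at 31.4, 33 and 28 FPKM against 7.06, 3.9 and 6.35 FPKM, and 1 of 2 proline dehydrogenases fell (Zm00001eb391720, 1.73, 1.74 and 1.74 against 9.63, 4.74 and 19.7 FPKM). Trehalose phosphate synthases and phosphatases fell in 13 of 21, with a median of −1.16, and 0 were higher by limma at an unadjusted p under 0.05 or called higher by voom. Trehalose-phosphate synthase 9 (Zm00001eb098910), the most abundant of them, was at 23.3, 24.8 and 24.9 FPKM under WS against 215, 293 and 211 FPKM under CT, and the gene that the study calls TPS6 (Zm00001eb178890) at 2.72, 4.75 and 5.43 FPKM against 39.1, 49.2 and 44.7 FPKM.

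Water channels were lower in most families. Plasma membrane aquaporins (PIP), which set how fast water crosses the cell surface, were called lower in 8 of 15, with a median of −1.79. By limma 0 were higher at an unadjusted p under 0.05, and voom called 0 higher. The PIP genes summed to 917, 942 and 936 FPKM in WS libraries and 2585, 2401 and 2224 FPKM in CT libraries. The most abundant, PIP1-5 (an assembled transcript at chr4:175098424-175099922), had 119, 122 and 126 FPKM under WS against 696, 784 and 533 FPKM under CT, and PIP2-3 (Zm00001eb185300) had 26.8, 18.4 and 29.9 FPKM against 174, 166 and 157 FPKM. Tonoplast aquaporins (TIP), the channels of the vacuole membrane, fell in 6 of 12 and rose in 2. TIP1-1 (Zm00001eb003730) held the highest level of the list, with 202, 225 and 282 FPKM under WS and 1237, 1119 and 1307 FPKM under CT, a log2 difference of −2.38 ± 0.19 (adjusted p = 0.000203). Against this, TIP3-1 (Zm00001eb221090), a tonoplast channel known from seeds in *Arabidopsis*, rose to 14.9, 39.4 and 22.3 FPKM under WS, against 0.781, 0.282 and 1.66 FPKM under CT. NIP and SIP channels fell in 3 of 9, among them NIP2-1 (Zm00001eb254540), known as a silicon channel in rice, at 83.8, 65.4 and 62.2 FPKM against 196, 179 and 139 FPKM. In the plot of single libraries, those of the called PIP and TIP genes did not overlap between WS and CT, as held for 4542 of the 4565 called genes.

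**Figure D3:**
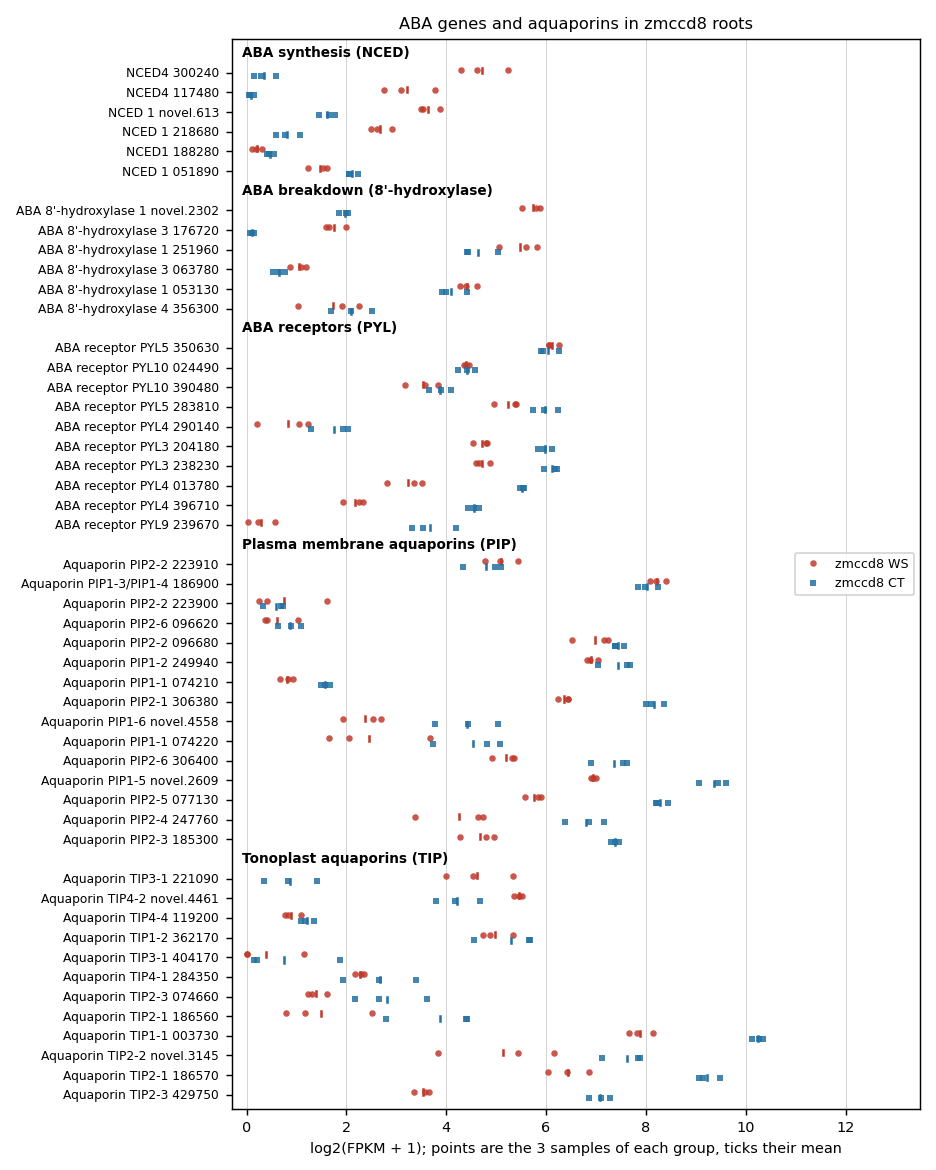
Level of every tested NCED, ABA 8'-hydroxylase, ABA receptor, PIP and TIP gene in *zmccd8* roots as log2(FPKM + 1), with the 3 WS libraries as red circles, the 3 CT libraries as blue squares and a tick at each group mean. Within each family genes run down from the largest rise to the deepest fall, and the abundant TIP1-1 gene sits near 8 under WS and 10 under CT.

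Most expansins and most class III peroxidases fell. Expansins, which loosen walls during growth, were called lower in 39 of 58 tested genes and higher in 1 (2 without CT 3), with a median of −1.54, and summed to 284, 248 and 356 FPKM in WS libraries against 1145, 685 and 1301 FPKM in CT libraries. Expansin-B2 (Zm00001eb391370) fell the most, with 1.04, 0.919 and 2.64 FPKM under WS and 37.8, 11.4 and 53.4 FPKM under CT. Expansin-B12 (Zm00001eb050500; same-strand overlap) was the 1 that rose, at 5.7, 5.86 and 4.2 FPKM against 1.18, 0.718 and 0.584 FPKM. Class III peroxidases, secreted enzymes that cross-link wall polymers, fell in 70 of 110 and rose in 1, with a median of −1.54. Their sum was 1318, 1093 and 1759 FPKM under WS against 5787, 3852 and 5592 FPKM under CT. Peroxidase 1 (Zm00001eb282410) was at 53.4, 37.9 and 69.9 FPKM under WS and 527, 385 and 559.5 FPKM under CT, and Cationic peroxidase SPC4 (Zm00001eb076200) at 1.92, 1.47 and 2.72 FPKM against 111, 101 and 102 FPKM. Peroxidase 51 (Zm00001eb214260, 32.4, 34 and 36.6 against 16.2, 19.9 and 14.2 FPKM) stood just inside the limit at a log2 difference of 1.00, and was not called without CT 1, CT 3 or WS 3 or with median-of-ratios scaling. Other wall lists had fewer calls. Xyloglucan endotransglucosylases, which cut and rejoin wall glucans, fell in 6 of 24 (10 without CT 2 or WS 3), fasciclin-like arabinogalactan proteins in 4 of 18. Of 8 cellulose synthase A genes limma called 0 (2 at an unadjusted p under 0.05), while voom called 2 lower.

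Genes of lignin and of the root's barriers were mixed. Laccases, which polymerise lignin, fell in 6 of 17 (3 without CT 1 or WS 2) and rose in 2 (1 without CT 1, CT 3, WS 1 or WS 2), with Laccase-10 (Zm00001eb012250) at 59.4, 55.1 and 34.5 FPKM under WS against 9.42, 15.2 and 7.18 FPKM under CT. Phenylalanine ammonia-lyases, at the entry to phenylpropanoids, fell in 3 of 13 (1 without CT 1). Dirigent genes, whose proteins steer lignan and lignin coupling, fell in 10 of 28 and rose in 1 (0 without CT 2, WS 2 or WS 3), and Casparian strip and CASP-like membrane proteins fell in 12 of 36 and rose in 2. CASP-like protein 1D1 (Zm00001eb305660) was at 18.5, 17.5 and 24.6 FPKM under WS and 248, 329 and 226 FPKM under CT. Lists of cell type markers moved with these groups. Of 12 endodermis genes 6 fell, all of them Casparian strip membrane proteins (the 5 SCARECROW and SHORT-ROOT genes, factors that specify the layer, were not called), and the list summed to 50, 31.4 and 58 FPKM in WS libraries against 166, 139 and 176 FPKM in CT libraries. All 12 had a log2 difference below 0, and 11 were lower by the adjusted p alone. Most of those 5 factors thus missed the call only by the limit on the log2 difference. Of 9 root cap domain genes 5 fell, with sums of 52.6, 25.1 and 73.3 FPKM against 248, 157 and 221 FPKM, and of 9 tracheary genes 3 fell, with sums of 226, 265 and 223 FPKM against 359, 449 and 299 FPKM. By limma 0 of these markers were higher at an unadjusted p under 0.05, and voom called 0 higher. Their part in the falls of wall, peroxidase and barrier genes was not tested.

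Of the division lists, core histones and cyclins were called lower more often than the 10.3% of all genes, in counts that depended on single libraries, and kinesins (8.62%) and tubulins (1 of 22, 4.55%) were below it. Core histones fell in 11 of 48, with a median of −0.60. Without CT 1 there were 5 and without CT 3, WS 1 or WS 2 there were 6. Cyclins fell in 7 of 33 (3 without CT 1, WS 1 or WS 2 and 4 without CT 3) and rose in 1 (0 without CT 2). The deepest fall was that of a gene named Cyclin-B1-2 (Zm00001eb303870), at 0.107, 0 and 0 FPKM under WS and 16.3, 24.7 and 20 FPKM under CT, while a more abundant gene of that name (Zm00001eb353660) had 103, 107 and 118 FPKM under WS and 133, 122 and 145 FPKM under CT, without a call. Of 15 MCM genes, whose products unwind DNA for replication, limma and voom called 0, and 0 reached an unadjusted p under 0.05. Kinesins fell in 5 of 58, a count of 1 without CT 1 or CT 3, 3 without WS 1 or WS 2 and 10 without CT 2. Of 329 cytosolic ribosomal protein genes 2 rose (5 without WS 1, 1 without CT 2 or WS 2) and 3 fell (5 without CT 2), and the median was 0.08.

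The direction of nutrient carriers differed by family. High-affinity nitrate transporters and their partner protein fell in 4 of 6 tested genes, with a median of −1.91. Transporter 2.1 (Zm00001eb209690) was at 1.22, 0.953 and 0.964 FPKM under WS against 31.1, 46.4 and 15 FPKM under CT, and the activating protein 2.1 (Zm00001eb246140) at 96.5, 136 and 136 FPKM against 476, 475 and 390.2 FPKM. In the NPF family of nitrate and peptide carriers 10 of 51 fell and 5 rose. NPF8.3 (Zm00001eb108840, 12.4, 11.3 and 12.9 FPKM under WS against 87.6, 140 and 85.4 under CT) and NPF7.3 (Zm00001eb189000, 11.9, 20.6 and 9.87 against 0, 0.0169 and 0.0784) were the member with the deepest fall and the member with the largest rise. Of 10 phosphate transporters 3 fell and 1 rose, which was Probable inorganic phosphate transporter 1-4 (Zm00001eb087690) with 11.3, 8.57 and 9.14 FPKM under WS and 0.0285, 0.0292 and 0 FPKM under CT. Sulfate transporters rose in 3 of 8 and fell in 1, and 1 of 8 ammonium transporters fell. Potassium channels and transporters rose in 5 of 41 and fell in 6. A transcript named Potassium channel AKT1 (chr5:208940215-208950445) was listed at 0 in all CT libraries and at 8.59, 9.59 and 6.82 FPKM in the WS libraries. The asparagine synthetase genes called ASN3 and ASN4 by the study, which store nitrogen as asparagine, both fell. ASN3 (Zm00001eb013430) was at 9.72, 6.23 and 14.5 FPKM under WS and at an uneven 68.5, 71.2 and 420.5 FPKM under CT, and ASN4 (Zm00001eb396990; same-strand overlap) at 5.51, 6.66 and 5.21 FPKM against 19.6, 12 and 22 FPKM.

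Sugar genes changed in both directions. Sucrose synthases and invertases, which split sucrose, fell in 7 of 22 and rose in 2. Sucrose synthase 4 (Zm00001eb016290) rose to 240, 266 and 188 FPKM under WS, against 8.97, 15.3 and 6.4 FPKM under CT, while the more abundant Sucrose synthase 2 (Zm00001eb392880) had 570.2, 458 and 369 FPKM under WS and 908, 1018 and 799 FPKM under CT, a log2 difference of −0.98 just under the limit. Wall invertase 7 (Zm00001eb067250) fell, at 21.8, 37 and 30.2 FPKM against 116, 125 and 212 FPKM. SWEET sugar transporters rose in 6 of 21 and fell in 5. SWEET12 (Zm00001eb016690) was at 263, 201 and 171 FPKM under WS against 9.89, 8.43 and 7.74 FPKM under CT, and SWEET1a (Zm00001eb145750) at 2.93, 2.35 and 2.38 FPKM against 44.1, 18.8 and 59.7 FPKM. Amylases rose in 2 and fell in 3 of 14, with Beta-amylase 3 (Zm00001eb023950) at 0.337, 0.764 and 0.791 FPKM under WS and 17.4, 12.8 and 32.5 FPKM under CT. Of the other starch and sucrose genes that the study lists, a beta-glucosidase (Zm00001eb334460; same-strand overlap) rose by 1.35 on the log2 scale, and a trehalose-phosphate phosphatase (Zm00001eb042260; same-strand overlap) had a log2 difference of −1.03 that lost its call without CT 1.

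Of 4 tested strigolactone synthesis genes, 2 rose and 1 fell (2 without CT 2). *ZmCCD8* (Zm00001eb153000, chr3:202178668-202182189), the gene interrupted in the mutant, gave 27.4, 24.2 and 18.1 FPKM under WS and 16.6, 5.63 and 8.22 FPKM under CT, so reads were still counted on it. Its log2 difference of 1.22 ± 0.35 (adjusted p = 0.0319) was lost without CT 2 (0.91), CT 3 (1.15), WS 1 (1.10) or WS 2 (1.19). *CCD7* (Zm00001eb074640), which acts before CCD8, was at 14.9, 12.3 and 9.88 FPKM under WS against 4.23, 2.15 and 2.98 FPKM under CT (log2 difference 1.71 ± 0.23, adjusted p = 0.00173), and the carotene isomerase D27 (Zm00001eb114700) at 5.05, 2.12 and 2.65 FPKM against 11.4, 8.05 and 11.8 FPKM. The study's qRT-PCR detected no *CCD8* transcript in *zmccd8*, and *CCD7* was weak and did not differ significantly by treatment. It amplifies a stretch set by its primers, whereas FPKM counts fragments over the whole gene. Reads on an interrupted gene therefore need not conflict with an undetected stretch, and where the *CCD8* reads lie was not examined. The study reports that it checked its qRT-PCR profiles against its RNA-seq data and that they corresponded.

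Among hormone genes other than those of ABA, TIFY domain genes, the family that holds the JAZ repressors of jasmonate signalling, rose in 10 of 24 (1 was lower by limma at an unadjusted p under 0.05, and 0 were called lower by limma or voom), with a median of 0.76, and the largest rise was that of a gene listed with the TIFY domain alone (Zm00001eb300140) with 7.13, 19.7 and 11.1 FPKM under WS against 1.16, 0.25 and 1.48 FPKM under CT. Of the 16 tested members that carry the Jas motif of JAZ repressors, a set picked out after the values were seen, 8 rose. Lipoxygenases, which oxidise fatty acids on the way to jasmonate and other oxylipins, fell in 5 of 12 and rose in 1, the abundant 9S-lipoxygenase 3 (Zm00001eb054040, 146, 141 and 199 against 56.5, 54.1 and 48 FPKM). ACC synthases and oxidases, which make ethylene, rose in 2 of 15 and fell in 1 (2 without CT 1, WS 2 or WS 3 and 3 without CT 2), an oxidase (Zm00001eb201390) with 4.87, 5.72 and 6.5 FPKM under WS and 119, 160 and 95.3 FPKM under CT. Aux/IAA repressors of auxin signalling rose in 3 of 34 and fell in 3 (7 without CT 2), and small auxin-up RNAs rose in 3 of 25 and fell in 7. Of 7 cytokinin oxidases 2 rose, of 19 ORR response regulators 2 rose and 2 fell (1 without WS 3), and of 12 gibberellin oxidases 2 rose, among them a gibberellin 2-beta-dioxygenase (Zm00001eb283860), an inactivating enzyme, at 15.7, 21.7 and 13.4 FPKM against 5.16, 2.05 and 5.41 FPKM.

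Defence and detoxification lists were split. Chitinases rose in 3 of 26 and fell in 5, but the most abundant of them, Endochitinase A (Zm00001eb078730), rose to 848, 1434 and 2509 FPKM under WS, against 299, 296 and 434 FPKM under CT. Proteinase inhibitors rose in 4 of 20 and fell in 8, with Subtilisin-chymotrypsin inhibitor-2A (Zm00001eb355990) at 28.5, 62.7 and 39 FPKM against 265, 682 and 784 FPKM. Terpene synthases rose in 3 of 14 and fell in 4, and (S)-beta-macrocarpene synthase (Zm00001eb412980), which makes precursors of the zealexin phytoalexins of maize, was at 75.5, 109 and 239 FPKM under WS and 14.1, 19.4 and 38.1 FPKM under CT. The 3 rises were 1 without CT 1, WS 2 or WS 3, and the 4 falls 2 without CT 1 or CT 3. UDP-glycosyltransferases rose in 21 of 115 and fell in 14, cytochromes P450 rose in 28 of 201 and fell in 35, and glutathione S-transferases rose in 8 of 58 and fell in 13 (8 without CT 3). Antioxidant enzymes had 2 rises (1 without CT 1) and 1 fall (2 without CT 2) among 30 catalases, superoxide dismutases and ascorbate peroxidases. Their rises (6.67%) were near the share over all genes and their falls (3.33%) below it. Of 15 NADPH oxidases limma and voom called 0, while 5 had an unadjusted p under 0.05. Papain-type cysteine proteases fell in 10 of 26 and rose in 2. LRR receptor-like kinases fell in 20 of 122 and rose in 4.

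Most transcription factor families held genes that rose and genes that fell, as did the tested genes as a whole (6.24% and 10.3%). The falls of GRAS (10.4%) and homeobox factors (10.9%) were near the latter share. AP2/ERF factors rose in 19 of 132 and fell in 9 (15 without CT 2, 14 without WS 3), bZIP factors rose in 10 of 55 and fell in 9, NAC factors rose in 14 of 96 and fell in 17, and MYB factors rose in 19 of 151 and fell in 25. WRKY factors rose in 9 of 92 and fell in 17, bHLH factors rose in 9 of 59 and fell in 10, homeobox factors rose in 7 of 55 and fell in 6 (10 with a replicate block), and GRAS factors fell in 5 of 48 (8 without CT 2). The largest rise was that of HOX22 (Zm00001eb075230), a homeobox-leucine zipper factor, at 46.2, 116 and 86 FPKM under WS against 0.748, 1.67 and 2.11 FPKM under CT. Transcription factor MYB2 (Zm00001eb426280), named after an *Arabidopsis* factor of ABA responses, was at 76.7, 76.6 and 61.6 FPKM against 3.73, 5.59 and 2.59 FPKM, and the NAC factor JUNGBRUNNEN 1 (Zm00001eb299720) at 15.3, 23.9 and 30.2 FPKM against 0.739, 1.51 and 2.0 FPKM. Of 31 NF-Y subunits 6 rose and 2 fell, with the subunits A-9 (Zm00001eb216950, 79.8, 81.5 and 77.4 against 4.05, 4.41 and 3.95 FPKM) and A-6 (Zm00001eb005690, 24.8, 23.4 and 23.6 against 166, 196 and 164 FPKM) at the extremes. The most abundant factor that fell was MYBAS2 (Zm00001eb266370), with 264, 308 and 269 FPKM under WS and 3116, 4697 and 2765 FPKM under CT, a log2 difference of −3.61 ± 0.26 (adjusted p = 0.000158). LOB domain-containing protein 37 (Zm00001eb051620), the gene that the study calls LBD7, fell to 5.09, 5.65 and 8.53 FPKM under WS, against 75.3, 101 and 62.7 FPKM under CT.

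Whether the mutation altered the response was asked with the interaction of genotype and treatment, fitted over the *zmccd8* and WT libraries under WS and CT. WT roots gave 4893 called genes under WS against CT (17.8% of those tested), 2039 higher (7.41%) and 2854 lower (10.4%). The interaction called 6 genes (0.0218%, 2185 at an unadjusted p under 0.05), and 0 of the 3104 list members were among them (272 at an unadjusted p under 0.05, 0 by voom). Those 6 calls were not kept by every setting, since limma called 0 genes with the replicate number as a block (2444 at an unadjusted p under 0.05) or with 0.1 FPKM added in place of 1 (2125), and voom called 0 (1941). Of the genes that rose in *zmccd8*, 1294 also rose in WT, which is 75.4% of the *zmccd8* and 63.5% of the WT rises, and of those that fell 2165 also fell in WT (76% of the *zmccd8* and 75.9% of the WT falls). No gene was called in opposite directions. Of the 4565 genes called in *zmccd8*, 4532 had a WT difference of the same sign, and 252 had an interaction of 1 or more in absolute log2. For these the shares over all tested genes were not counted. An interaction at an unadjusted p under 0.05 (limma) was found for 502 of the 4565, and for 2185 of all 27530 tested. DHN1, for example, was at 7437, 7333 and 9418 FPKM in WT roots under WS and 0.95, 0.822 and 20.9 FPKM under CT, a log2 difference of 10.87, against 10.79 in *zmccd8*. List medians stood side by side at 4.46 in *zmccd8* and 5.02 in WT for LEA genes, −1.54 and −1.18 for expansins, −1.54 and −1.13 for class III peroxidases, and −1.79 and −1.24 for PIP aquaporins. The differences between these medians were not tested. Polyol transporter 5 (Zm00001eb021140, chromosome 1), a sugar alcohol carrier, rose in both genotypes and less in *zmccd8*, with 18.6, 14.7 and 14.2 FPKM under WS and 2.83, 2.99 and 2.2 FPKM under CT in *zmccd8*, and 39.1, 49.4 and 62.2 FPKM under WS and 1.55, 1.83 and 0.927 FPKM under CT in WT (interaction −2.19 ± 0.28 on the log2 scale, adjusted p = 0.0298). Of the other 5, 4 lie on chromosome 3, the chromosome of *ZmCCD8*, and were at or near 0 in *zmccd8* under WS and CT alike.

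**Figure D4:**
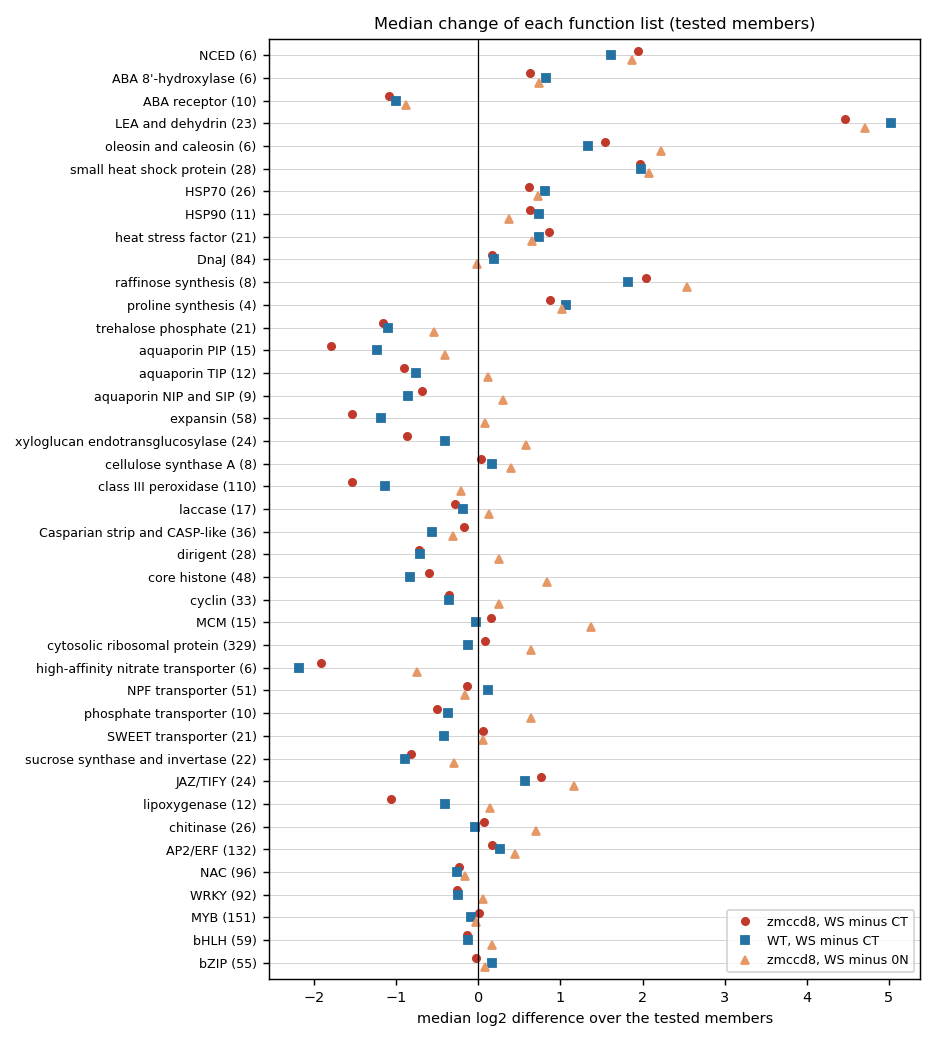
Median log2 difference of the tested members of 41 function lists, for WS minus CT in *zmccd8* (red circles), WS minus CT in WT (blue squares) and WS minus 0N in *zmccd8* (orange triangles), with the number of tested members in brackets. LEA genes lie farthest to the right, at 4.46 in *zmccd8* and 5.02 in WT, while the triangles of expansins (0.08) and class III peroxidases (−0.21) lie near 0.

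A further comparison set WS against 0N in *zmccd8* roots, since the solution that WS plants missed also carried the nitrogen. It called 4931 genes (17.9%), 2623 higher under WS (9.53%) and 2308 lower (8.38%). It shares the WS libraries with the comparison against CT, so the 2 are set side by side only. LEA genes were higher under WS than under 0N in 20 of 23 and lower in 1, and small heat shock proteins were higher in 17 of 28 and lower in 1. Expansins were called higher in 8 and lower in 6 of 58 against 0N, where 39 were lower against CT. Class III peroxidases were higher in 11 and lower in 18 of 110 against 0N, where 70 were lower against CT, and PIP aquaporins were higher in 3 and lower in 4 of 15. Of the 9 root cap and 12 endodermis genes limma called 0 against 0N (1 at an unadjusted p under 0.05), and voom called 1. TIP1-1, for example, was at 202, 225 and 282 FPKM under WS and 297, 307 and 496 FPKM under 0N (log2 difference −0.60, not called). Of the division lists, MCM genes were higher under WS than under 0N in 8 of 15, whereas core histones were higher in 5 and lower in 2 of 48, cyclins higher in 2 and lower in 1 of 33, and kinesins lower in 4 of 58. Ribosomal protein genes were called higher in 32 of 329, near the share of 9.53% over all genes. LOB domain-containing protein 37 (Zm00001eb051620) was higher under WS than under 0N and lower than under CT, with 5.09, 5.65 and 8.53 FPKM under WS and 0.647, 1.19 and 1.97 FPKM under 0N.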

How the data were processed

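Root RNA of 3 libraries in each of 6 groups was measured. The authors trimmed reads (fastp and Trimmomatic appear in their processing notes), aligned them with HISAT2 2.0.5 to Zm-B73-REFERENCE-NAM-5.0, counted fragments with featureCounts of Subread and deposited FPKM. These FPKM were already scaled alike, with median-of-ratios factors of 1.008 in each library. Median-of-ratios scaling therefore divided every library by the same number, and as an alternative it could not test the scaling between libraries. Reads rebuilt from FPKM and gene length were whole in 100% of values (within 0.1 read). The authors' own tests used DESeq2 and were not repeated. The members and lists were chosen with earlier results of these data known.

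Features with 1 FPKM or more in 3 of 18 libraries were fitted with limma 3.58.1 in R 4.3.3 on log2(FPKM + 1), each comparison on its own libraries, with Benjamini-Hochberg adjustment over all tested features. The fit and the calls were tested on simulated data. Python 3.11.15 was used for lists and plots. Named genes were the 10 largest rises and 10 deepest falls with a name, the extremes and most abundant member of each list, the genes of the study's qRT-PCR and starch and sucrose lists, and interaction calls. Same-numbered *zmccd8* libraries under WS and CT deviated together (correlations of 0.135, 0.224 and 0.253), as did those under WS and 0N (0.181, 0.199 and 0.234). WT libraries did not (0.014, −0.013 and 0.025). The main fits were unpaired, and the replicate number entered as a block only in an alternative. Alternatives were another pseudocount, filter, scaling, tool (voom on the rebuilt reads), a replicate block, annotated genes only, no variance trend, all 18 libraries in a single fit, the adjusted p alone and each library left out. Features that overlap another on their strand are named as such, since reads there may belong to either. The reference table used here held no maize sequence, and the bases shown come from the study's list of assembled transcripts.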

Additional observations from a re-analysis of the deposited data

Results flagged for a closer look

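The WS response differed between *zmccd8* and WT in 6 genes by the interaction test (limma, adjusted p of 0.05 or less), and each value here is the *zmccd8* log2 difference minus the WT log2 difference.

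Polyol transporter 5 (Zm00001eb021140) had an interaction of −2.19 (adjusted p = 0.0298), with the FPKM given above. RADIALIS-like 3 (Zm00001eb398500, chromosome 9), a MYB-type factor, had an interaction of 1.79 (adjusted p = 0.0308). It was at 0.277, 0.162 and 0.294 FPKM under WS and 1.58, 2.26 and 1.93 FPKM under CT in *zmccd8*, and at 0, 0.132 and 0 FPKM under WS and 7.15, 9.04 and 6.33 FPKM under CT in WT, so it was lower under WS in both genotypes.

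HOX10 (Zm00001eb145820, chromosome 3), a homeobox-leucine zipper factor, had an interaction of 2.75 (adjusted p = 0.00434), with 0, 0 and 0 FPKM under WS and 0, 0 and 0.0624 FPKM under CT in *zmccd8*, and 6.32, 3.34 and 5.76 FPKM under WS and 37.1, 46.7 and 36.9 FPKM under CT in WT. Also on chromosome 3, 3 assembled transcripts without a name were called. The transcript at chr3:200027624-200030161 had an interaction of −2.53 (adjusted p = 0.00203), was listed at 0 in *zmccd8* under WS and CT, and was at 5.41, 4.11 and 6.16 FPKM under WS and 0.0332, 0.0718 and 0.108 FPKM under CT in WT. The transcript at chr3:144676762-144677508 (2.03, adjusted p = 0.043) was listed at 0 in *zmccd8* under WS and CT, and was at 0.0795, 0.0693 and 0.243 FPKM under WS and 4.85, 2.31 and 4.04 FPKM under CT in WT. The transcript at chr3:185090935-185093947 (−2.35, adjusted p = 0.0231) had 0.0476, 0.0335 and 0.0578 FPKM under WS and 0, 0 and 0 FPKM under CT in *zmccd8*, and 4.58, 2.99 and 6.47 FPKM under WS and 0, 0.0896 and 0 FPKM under CT in WT. These 4 genes were at or near 0 in *zmccd8* under 0N too. As *zmccd8* was near 0 under WS and CT alike, their interactions are close to the WT difference with its sign reversed. Why these genes were near 0 was not tested.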

How the results depend on the processing

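The 16 alternatives kept the direction of all 171 called genes among the 222 named, and 157 of them kept their call in every alternative that tested them. Direction could not turn with another filter, annotated genes only, no variance trend, all 18 libraries, the replicate block or the adjusted p alone. These settings leave the log2 difference of a gene unchanged, and the adjusted p alone can only add calls. Median-of-ratios scaling, with the same factor in each library, could hardly turn a direction either. The WS response in *zmccd8* was 4565 genes, 3950 to 4941 with a library left out, 4684 with the replicate block, 6106 with a pseudocount of 0.1, 6145 with voom, 2866 with a mean of at least 5 FPKM and 10102 by the adjusted p alone. For WT the counts were 4421 to 4856 with a library left out, 4829 with the replicate block, 3137 with a mean of at least 5 FPKM and 10404 by the adjusted p alone, against 4893. WS against 0N gave 4333 to 5437 with a library left out, 5027 with the replicate block, 3284 with a mean of at least 5 FPKM and 11095 by the adjusted p alone, against 4931. The 6 interaction calls became 17 with all 18 libraries in the fit, 10 without a filter, 3 with annotated genes only, 2 with a mean of at least 5 FPKM, 2 to 7 with a library left out and 0 with a pseudocount of 0.1, the replicate block or voom, and the cause was not tested. Members of function lists called were 880, 768 to 972 with a library left out, 911 with the replicate block and 1478 by the adjusted p alone. Fewer genes were tested with annotated genes only or a mean of at least 5 FPKM. The block changed no other count by over 1.5 times except homeobox factors that fell (6, and 10 with the block). The median log2 difference of all genes lay within 0.0323 of 0 in every alternative. Except with voom, which starts from the rebuilt reads, this was largely fixed by the scaling of the deposited values and is no test of it. With 3 libraries a group, an exact test of 1 gene cannot go below p = 0.1, so calls rest on the variance shared across genes, and genes near 1 FPKM are limited by depth.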

Other observations

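Genes of metal nutrition formed further groups, which were put together after their values were seen. In grasses iron is taken up with mugineic acids, which are made out of nicotianamine. Of 11 tested nicotianamine synthase genes, 4 rose and 6 fell in *zmccd8* roots under WS. The 4 that rose are all named Nicotianamine synthase 3 and the 6 that fell Nicotianamine synthase 2. Not all of these are separate loci. Zm00001eb052900 (same-strand overlap) lies opposite Zm00001eb052890, and Zm00001eb014710 opposite Zm00001eb014700. Nicotianamine synthase 3 (Zm00001eb052890) was at 20.9, 26.6 and 28.4 FPKM under WS against 2.12, 2.15 and 2.44 FPKM under CT (log2 difference 3.01 ± 0.15, adjusted p = 3.57e-05). How alike the copies within each name are was not measured, and reads of similar copies can be split among them. Of 10 tested genes named nicotianamine aminotransferase or deoxymugineic acid synthase, 1 rose and 3 fell. The synthase that rose (Zm00001eb423470) was at 3.81, 4.28 and 9.98 FPKM under WS against 0.154, 0.394 and 0.219 FPKM under CT. Of 14 ZIP metal transporters 3 fell and 1 rose. It was Zinc transporter 10 (Zm00001eb277370), at 200, 234 and 159 FPKM under WS against 68.4, 52.9 and 152 FPKM under CT. The iron-phytosiderophore transporter yellow stripe 1 (Zm00001eb249020), which carries iron into the root, was at 1.88, 1.78 and 2.79 FPKM under WS against 52.7, 25.1 and 90.5 FPKM under CT, and 5 of 12 genes of its family fell. IRON-RELATED TRANSCRIPTION FACTOR 2 (Zm00001eb362800), known in rice as an activator of iron uptake genes, was at 6.89, 5.25 and 7.58 FPKM against 68.9, 71.6 and 92.4 FPKM, and ZINC INDUCED FACILITATOR 1 (Zm00001eb133440) at 0, 0.126 and 0.229 FPKM against 39.9, 6.76 and 63.2 FPKM. Both ferritin genes, whose proteins store iron, rose, by 1.59 (Zm00001eb195010) and 1.06 (Zm00001eb404870) on the log2 scale, and both overlap another feature on their strand.

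Metallothioneins, small metal-binding proteins, rose in 4 of 7 and fell in 1. The most abundant, Metallothionein-like protein 1 (Zm00001eb164610), was not called (log2 difference 0.29, limma adjusted p = 0.73). It was at 7772, 10490 and 8942 FPKM under WS and 6492, 8178 and 7472 FPKM under CT. Metallothionein-like protein 2 (Zm00001eb124800) was at 1766, 2912 and 2254 FPKM under WS against 24.2, 32.1 and 62.3 FPKM under CT, while an assembled transcript named Metallothionein-like protein 1A (chr1:74921687-74922577) was at 44, 75.5 and 78.6 FPKM against 985, 1029 and 1474 FPKM. Genes with the hydrophobic seed protein domain, which holds proline-rich and cortical cell-delineating proteins, fell in 16 of 21 with a median log2 difference of −2.41, and against 0N 3 of them were higher and 1 lower. The shares of all genes (6.24% higher and 10.3% lower) apply here as well, and these groups were not tested.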
